A study of Mus musculus with 6 samples.

Results

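Alveolar type 2 (AT2) cells were examined in both unsorted whole-lung libraries of embryonic day (E) 18.5 mice. A cell was taken as AT2 when its SoupX-adjusted values held at least 1 Epcam, at least 50 Sftpc and at least 1 of Lamp3, Abca3 and Slc34a2 combined, with Foxj1, Ptprc, Pecam1 and Cdh5 at 0. Only barcodes with at least 700 genes and 0.5 to 10% mitochondrial values were considered. The rule chose 418 cells of 16515 kept cells, and the 6 libraries of the series hold 63659 barcodes. Of the AT2 cells, 259 came from the library labelled as a Cxcl12 heterozygous control (Cxcl12DsRed/+) and 159 from the library labelled as a Cxcl12 homozygous null (Cxcl12DsRed/DsRed). In this allele the DsRed reporter is knocked into Cxcl12 in every cell, so by the labels both groups carry at least 1 reporter copy and neither is wild type. Each library held the lungs of more than one embryo per the study's text, which leaves 1 library per label, so differences between them carry counting error only and were not tested.

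AT2 cells are the cuboidal cells of the alveolus. They make surfactant, a film of phospholipids and surfactant proteins that lowers surface tension when breathing begins, and store it in lamellar bodies before secretion. In late gestation they build up fatty acid and phosphatidylcholine synthesis and arise beside flat alveolar type 1 (AT1) cells from distal progenitors that express genes of both fates.

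The labels were first set against Cxcl12 itself. Over all kept cells, Cxcl12 stood at 1.27 CPM (UMIs of a gene, each tagging 1 captured transcript, scaled to a total of 1000000) in the library labelled control and at 191.5 CPM in the library labelled null. In endothelial cells the levels were 5.21 and 549.9 CPM. The levels ran against the labels, as do the names under which the tables were deposited, so every direction given here refers to the library as labelled. The library labelled control held 8845 barcodes and 85322352 UMIs and the library labelled null 9838 and 103353686. SoupX, which subtracts free RNA, removed 39.7% and 18.1% of these UMIs. Levels are therefore given on UMI counts, and SoupX-adjusted values only where stated. The libraries shared 140 barcode sequences, and 0 of these were AT2 cells in both.

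AT2 cells made up 3.48% of kept cells (exact 95% binomial interval 3.07 to 3.92) in the library labelled control and 1.75% (1.49 to 2.05) in the library labelled null. Among epithelial cells, the shares were 39.9% (36.1 to 43.7) of 650 cells and 34.3% (30.02 to 38.9) of 463 cells. The first pair of intervals did not overlap and the second pair did. All intervals cover counting error only, and how each lung was dissociated was not tested. AT2 cells held a median of 15278 and 17766 UMIs and 3286 and 3537 genes.

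Few cells lay near the cut at 50 Sftpc. The lowest adjusted Sftpc values among the chosen cells were 98.7, 102 and 132 in the library labelled control and 56.0, 70.5 and 80.3 in the library labelled null. The highest values among cells that met every other part of the rule were 25.03 and 45.3, so the values on each side of the cut lay closer together in the library labelled null. Of the 91 and 85 such cells outside, 85 and 80 had no adjusted Sftpc. On UMI counts, Sftpc made up a median of 10.7% and 11.3% of an AT2 cell's UMIs. The lowest, median and highest cells of the library labelled control held 121, 1704 and 5867 Sftpc UMIs, and those of the library labelled null 71, 2138 and 6446. Free Sftpc RNA was present in both droplet runs: with every cell thinned to 3000 UMIs, 18.7% and 14.5% of endothelial cells held a Sftpc UMI, against all AT2 cells.

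**Figure D1:**
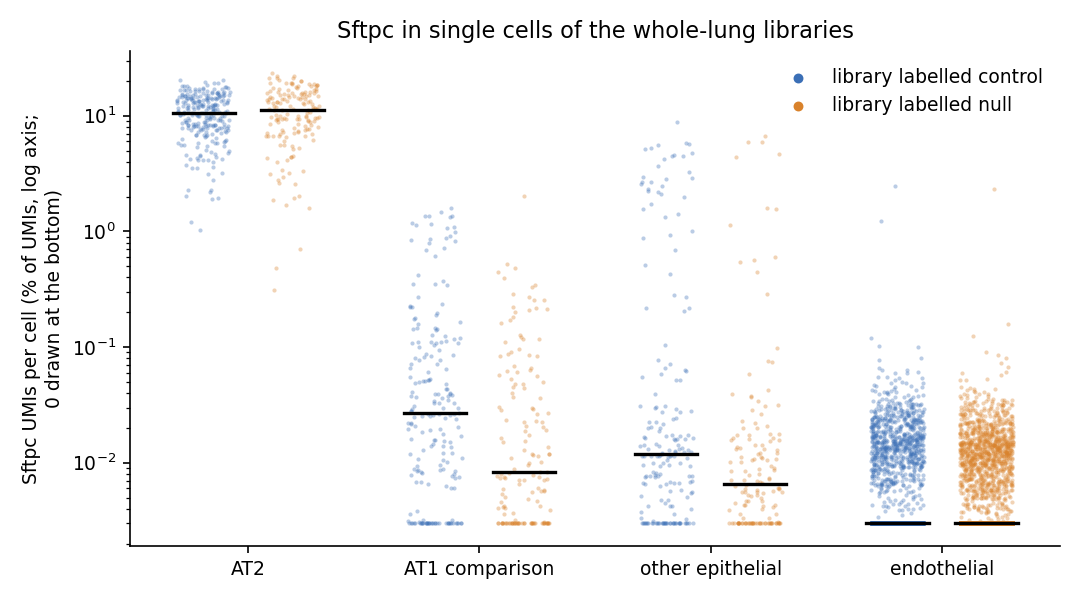
Each point is a cell, with Sftpc as a percent of its UMIs on a log axis, for AT2, AT1 comparison, other epithelial and endothelial cells of the libraries labelled control (blue) and null (orange), and black bars are medians. AT2 cells, chosen by Sftpc, centre on 10.7% and 11.3%, and the endothelial medians lie at 0.

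The promoters of Sftpb, Sftpa1 and the lysozyme genes described below are shown because these genes recur in the results. No expression value given here rests on these promoters. Sftpc and Sftpd had no entry in the promoter table used. They are RefSeq windows of GRCm38.p6, from 250 bases before the annotated start to 50 bases after it, written 5′ to 3′ on the gene's strand. Capitals mark matches on either strand to CTCAAG, the core recognised by the lung factor NKX2-1, and to TTGCNNAA, the core recognised by C/EBP factors. Sftpb (chr6:72304360-72304659, + strand) and Sftpa1 (chr14:41131538-41131837, + strand) held CTCAAG, at positions 151 and 236 and at position 85 of the window. Lyz1 (chr10:117292819-117293118, - strand) held the C/EBP letters at position 42, and Lyz2 (chr10:117282223-117282522, - strand) held neither.
Sftpb: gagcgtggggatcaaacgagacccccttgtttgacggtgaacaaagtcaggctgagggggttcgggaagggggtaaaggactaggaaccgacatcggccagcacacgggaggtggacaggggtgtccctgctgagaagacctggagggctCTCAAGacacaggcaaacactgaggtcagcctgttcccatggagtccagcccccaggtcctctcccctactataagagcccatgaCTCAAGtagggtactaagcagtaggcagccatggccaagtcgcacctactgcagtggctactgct
Sftpa1: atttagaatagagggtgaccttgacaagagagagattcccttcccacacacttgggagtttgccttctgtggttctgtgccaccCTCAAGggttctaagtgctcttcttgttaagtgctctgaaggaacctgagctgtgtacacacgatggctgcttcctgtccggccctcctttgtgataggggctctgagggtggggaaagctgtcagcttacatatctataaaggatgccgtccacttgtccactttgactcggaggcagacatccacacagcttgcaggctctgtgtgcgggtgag
Lyz1: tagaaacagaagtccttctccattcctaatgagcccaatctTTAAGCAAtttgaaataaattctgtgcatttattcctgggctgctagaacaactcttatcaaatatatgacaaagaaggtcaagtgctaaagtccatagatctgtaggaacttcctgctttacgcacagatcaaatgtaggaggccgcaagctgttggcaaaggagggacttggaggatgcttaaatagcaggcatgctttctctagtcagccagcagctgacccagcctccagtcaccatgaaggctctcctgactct
Lyz2: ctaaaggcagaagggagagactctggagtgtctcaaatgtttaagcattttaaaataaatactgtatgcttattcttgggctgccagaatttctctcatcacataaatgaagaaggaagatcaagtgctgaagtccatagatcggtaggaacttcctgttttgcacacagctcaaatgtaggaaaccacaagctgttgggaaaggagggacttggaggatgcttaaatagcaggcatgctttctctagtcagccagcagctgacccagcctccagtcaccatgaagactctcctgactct
Of all 32851 promoter windows, 15.9% held CTCAAG and 10.8% held TTGCNNAA. Among genes more than 2-fold higher in AT2 than in AT1 comparison cells, 92 of 115 had a window, of which 20.7% held CTCAAG and 19.6% held TTGCNNAA, against 16.0% and 10.5% of the 2257 genes with a window among those compared. A match is a run of letters and says nothing on binding.

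The name was checked on 20 AT2 markers that the rule did not use. AT2 cells were set against 202 and 154 AT1 comparison cells (under 50 Sftpc and at least 10 of Ager, Hopx and Rtkn2 combined) and against 189 and 150 other epithelial cells. Since the cells were chosen by readouts of the same libraries, these contrasts describe the chosen cells and were not tested. Among 2845 genes of at least 50 CPM, 115 were more than 2-fold higher in AT2 than in AT1 comparison cells in both libraries (4.04%) and 103 were lower (3.62%). Of the 20 markers, 18 were higher and 0 lower, with Ctsh and Muc1 the exceptions. Against other epithelial cells, 199 of 3585 genes (5.55%) were higher and 854 (23.8%) lower, and 19 of 20 markers were higher. With the genes of the rule left out, the 4 genes with the largest ratios over both comparison populations, by the smaller ratio of the 2 libraries, were Lyz1, a secreted lysozyme, S100g, a calcium-binding protein, Scd1, the stearoyl-CoA desaturase that makes monounsaturated fatty acids, and Sftpa1. Scd1 stood at 135 and 184 CPM in AT2 cells against 3.07 and 1.98 CPM in AT1 comparison cells. S100g stood at 370 and 511 CPM against 5.12 and 4.62 CPM. The AT1 comparison cells included airway-like cells: 44 of 202 and 74 of 154 had 10 or more UMIs of Scgb1a1 and Scgb3a2, the secretoglobins of airway secretory cells, and these held a median of 4.5 Ager UMIs in each library against 50 and 84 in the rest. Without them, an alternative chosen after seeing the data, 128 genes and 17 of the 20 markers were higher in AT2 cells. The AT1 levels then moved: Ager, the receptor that marks AT1 cells, stood at 4506 and 5478 CPM in place of 2983 and 2388 CPM, Sftpb at 98.5 and 159 CPM in place of 259 and 597 CPM, and Lcn2 at 1.12 and 0.822 CPM in place of 8.52 and 19.5 CPM. Lcn2 and Pon1 then had larger ratios than S100g, Scd1 and Sftpa1.

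The 4 surfactant protein genes summed to 108923 and 111917 CPM in AT2 cells of the libraries labelled control and null, most of it Sftpc, by which the cells were chosen. Sftpc (chr14:70520949-70524081, - strand, GENCODE M21), the hydrophobic protein of the film, stood at 100162 and 103417 CPM. Sftpb, the other hydrophobic protein and essential for breathing, stood at 3649 and 3844 CPM in AT2, against 259 and 597 CPM in AT1 comparison cells. Sftpa1, a collectin of the film with a role in host defence, stood at 4620 and 4126 CPM against 130 and 33.0 CPM. Sftpd, the other collectin, was the least restricted, with 492 and 530 CPM against 162 and 246 CPM. With cells thinned to 3000 UMIs, 98.8% and 97.5% of AT2 cells held Sftpb UMIs but only 53.9% and 60.1% held Sftpd.

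The machinery that processes surfactant was also higher in AT2 cells, in part. Of 7 processing and lamellar body genes compared, without the 3 genes of the rule, 4 were more than 2-fold higher than in AT1 comparison cells in both libraries and 1 was lower. Over all genes compared, 4.04% were higher and 3.62% lower. Napsa, the aspartic protease that trims the surfactant precursors, stood at 889 and 1193 CPM against 131 and 104 CPM. Dram1, a lysosomal membrane protein, stood at 584 and 545 CPM against 83.2 and 58.1 CPM. Ctsh, a further precursor protease, was high in both cell types, at 2433 and 3407 CPM in AT2 and 1340 and 1582 CPM in AT1 comparison cells. Sec14l3 was lower in AT2, at 26.4 and 42.8 CPM against 141 and 189 CPM. Without the airway-like cells in the AT1 group, Adgrf5 no longer passed 2-fold in both libraries.

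Each of the 4 lipid lists held genes higher in AT2 than in AT1 comparison cells. Over all 2845 genes compared, 4.04% were higher and 3.62% lower. Some lipid genes, such as Scd1 and Cd36, reached the minimum level only on the AT2 side of this contrast, which favoured that direction. For fatty acid synthesis, 4 of 10 genes compared were higher in AT2 than in AT1 comparison cells in both libraries, and 0 were lower. These were Scd1, Fasn, the fatty acid synthase, Srebf1, the transcription factor of lipogenesis, and Acsl4, an acyl-CoA synthetase. Fasn stood at 214 and 260 CPM against 61.1 and 64.4 CPM. Scd2, the other desaturase, stood at 592 and 587 CPM but also at 490 and 326 CPM in AT1 comparison cells. For lipid uptake and storage, 6 of 8 genes were higher. Fabp5, a fatty acid carrier, stood at 4218 and 3802 CPM against 319 and 273 CPM. Cd36, a fatty acid receptor, stood at 233 and 200 CPM against 19.5 and 12.5 CPM, and was higher still in endothelial cells at 400 and 307 CPM. Npc2, a lysosomal cholesterol carrier found in lamellar bodies, was at 3488 and 4583 CPM against 1734 and 1840 CPM. Without the airway-like cells in the AT1 group, 3 of 8 uptake genes and 5 of 10 fatty acid synthesis genes were higher, and Npc2 no longer passed 2-fold.

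For phosphatidylcholine, the main lipid of surfactant, 3 of 10 genes were higher, beside 4.04% of all genes compared. The list's median log2 ratios over AT1 comparison cells were 0.15 and 0.32, beside -0.16 and -0.09 over all genes compared. Without the airway-like cells in the AT1 group, 2 were higher and 1 lower. Lpcat1, the acyltransferase that makes the saturated form, stood at 685 and 657 CPM against 217 and 113 CPM, and the phospholipase Pla2g1b at 447 and 312 CPM against 68.9 and 33.0 CPM. The general pathway enzymes Chka, Chpt1 and Pcyt1a did not pass 2-fold; Chka stood at 119 and 109 CPM in AT2 and 174 and 130 CPM in AT1 comparison cells. Of the 22 cholesterol synthesis genes, only 4 reached the minimum level in this contrast. Among these 1, Insig1, the brake on sterol synthesis, was higher, at 80.2 and 72.8 CPM against 22.2 and 31.7 CPM. Without the airway-like cells, Hmgcs1 passed 2-fold too.

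**Figure D2:**
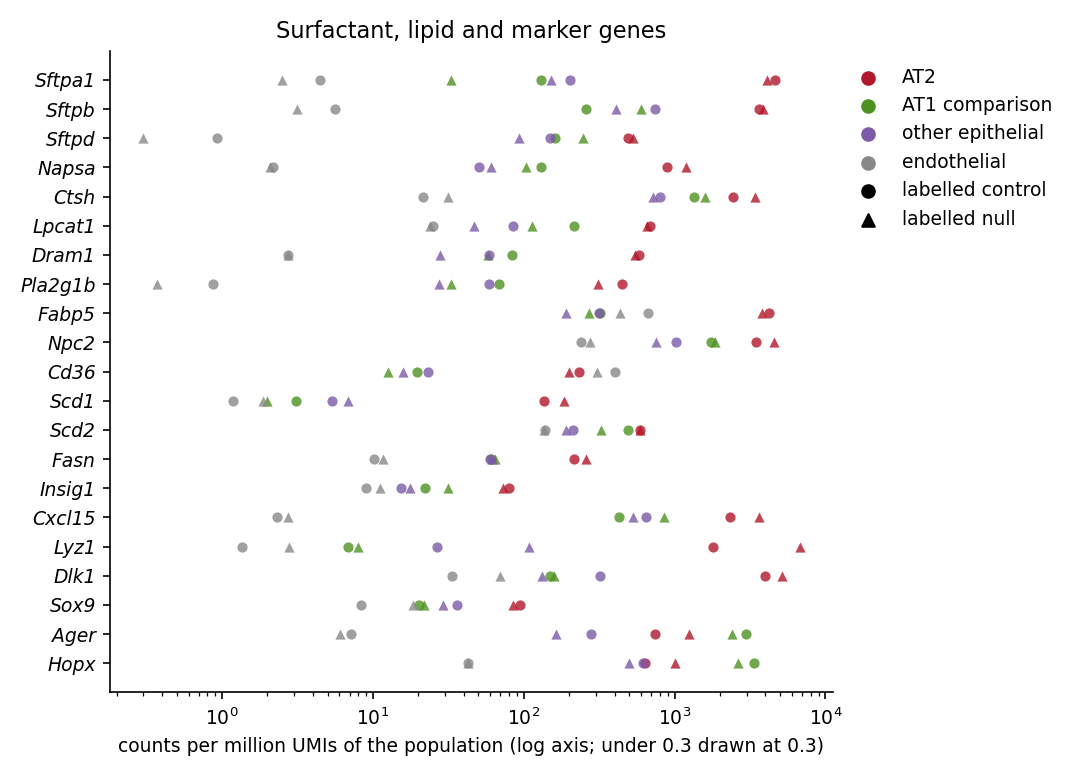
CPM on a log axis of named genes in AT2 (red), AT1 comparison (green), other epithelial (purple) and endothelial (grey) cells, with circles for the library labelled control and triangles for the library labelled null. Red marks lie to the right for most surfactant and lipid genes, but Cd36 is higher in endothelial cells. Ager and Hopx are higher in the AT1 comparison cells, at 2983 and 2388 CPM for Ager.

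Some genes of distal progenitors were still expressed. Of 16 such genes listed, 7 reached the minimum level and were compared. Of these, 5 were higher in AT2 than in AT1 comparison cells and 0 lower, beside 4.04% and 3.62% of all genes compared. Some, such as Sox9 and Etv5, reached the minimum level only on the AT2 side. H19, also listed, ran the other way without passing 2-fold in both libraries, at log2 ratios of -1.30 and -0.66. Sox9, the distal tip factor, stood at 94.2 and 85.3 CPM against 20.1 and 21.8 CPM, Etv5, a target of FGF signals, at 156 and 146 CPM against 12.96 and 9.90 CPM, and its receptor Fgfr2 at 340 and 276 CPM against 81.2 and 62.4 CPM. Dlk1, an imprinted Notch-related ligand of fetal tissue, was not on this list but among the 10 largest ratios over AT1 comparison cells. It stood at 3993 and 5182 CPM against 149 and 158 CPM. The lineage factor Nkx2-1 differed little, at 480 and 445 CPM against 494 and 361 CPM, whereas Cebpa stood at 242 and 257 CPM against 32.4 and 56.1 CPM.

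Of 14 host defence genes listed, 9 reached the minimum level in AT2 or AT1 comparison cells and were compared. All 9 were higher in AT2 than in AT1 comparison cells in both libraries, beside 4.04% of all genes compared. Some, such as Lyz1 and Lcn2, reached that level only on the AT2 side, so the filter itself favoured this direction. The list shares Lyz1, Lyz2, Chil1 and Cxcl15 with the 20 AT2 markers above, so this count is not independent of that check. Lcn2, an iron-sequestering protein, stood at 165 and 288 CPM against 8.52 and 19.5 CPM, and the lung chemokine Cxcl15 at 2319 and 3618 CPM against 426 and 848 CPM, or 77.3 and 130 CPM without the airway-like cells. All 9 were higher without those cells too. Cd74, the invariant chain of MHC class II, stood at 247 and 211 CPM against 9.89 and 11.6 CPM, but its partner H2-Aa at only 34.7 and 16.6 CPM.

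Many AT2 cells also carried AT1 transcripts. Of the AT2 cells, 120 of 259 (46.3%, 40.1 to 52.6) and 99 of 159 (62.3%, 54.2 to 69.8) had 10 or more adjusted values of Ager, Hopx and Rtkn2 combined, a level met by 0 of 1771 and 2 of 2825 endothelial cells, whose median depth was 7761 and 8615 UMIs. SoupX removed 40.5% and 17.2% of AT2 UMIs, which left median adjusted totals of 9369 and 15097 per cell. The same cut was therefore stricter in the library labelled control, and the part of this in the 2 shares was not tested. The AT1 signal is a range and not a type, since 84 and 64 AT2 cells lay between 5 and 20. Ager stood at 742 and 1248 CPM in AT2 cells against 2983 and 2388 CPM in AT1 comparison cells, or 4506 and 5478 CPM without the airway-like cells among them. Cells above the cut held less Sftpc, at 89200 CPM against 111150 CPM below it in the library labelled control and 86883 against 144291 CPM in the library labelled null. They held less Lyz1 too, at 1162 against 2430 CPM and 3826 against 13978 CPM. Scrublet, which flags droplets that look like mixtures, called 27 of 259 (10.4%) and 10 of 159 (6.29%) AT2 cells, of which 11 and 8 were above the cut. Cells above it had a median of 15582 UMIs against 14740 below it and 21102 against 15806, and the part of depth or mixed droplets was not tested.

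Lyz1 marked a subset of AT2 cells in both libraries. The gene lies at chr10:117287797-117292868 next to Lyz2, at chr10:117277331-117282321, both on the - strand. It had no UMI in 163 of 259 cells of the library labelled control and in 72 of 159 of the library labelled null, yet reached 962 and 1383 UMIs in the highest cells. Cells with 10 or more Lyz1 UMIs numbered 54 (20.8%, 16.1 to 26.3) and 56 (35.2%, 27.8 to 43.2). Among 2723 genes, 22 (0.808%) were more than 2-fold higher and 8 (0.294%) lower in these cells than in those without Lyz1 UMIs in both libraries. The cut, and the genes named from it, were chosen after the values were seen. The genes higher included Lcn2 at 352 against 78.0 CPM and 609 against 68.8 CPM, Scd1 at 262 against 69.8 CPM and 363 against 66.6 CPM, and Bex2 at 526 against 197 CPM and 790 against 175 CPM. Pon1, Chil1, S100g, Cxcl15 and Trf, the transferrin gene, were also on that side. Genes lower included Clu, a secreted chaperone, at 36.8 against 150 CPM and 27.1 against 227 CPM, and Ndnf, a secreted neurotrophic factor, at 64.2 against 144 CPM and 84.8 against 316 CPM. The share of cells past the AT1 cut was 22.2% against 57.1% of cells without Lyz1 UMIs in the library labelled control, and 39.3% against 79.2% in the library labelled null. Their median depth was 19484 against 14406 UMIs and 18276 against 16576 UMIs, and its part in these shares was not tested. In the library labelled null, 24 of the 56 cells held Y-linked UMIs and no Xist, against 9 of the 72 without Lyz1 UMIs. That library is split by these genes below, and the part of this imbalance here was not tested. In the last 500 transcript bases, 52 of 441 words of 60 bases are shared between Lyz1 and Lyz2, so reads there cannot be split between the paralogs, and their separate levels are uncertain to that extent.

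**Figure D3:**
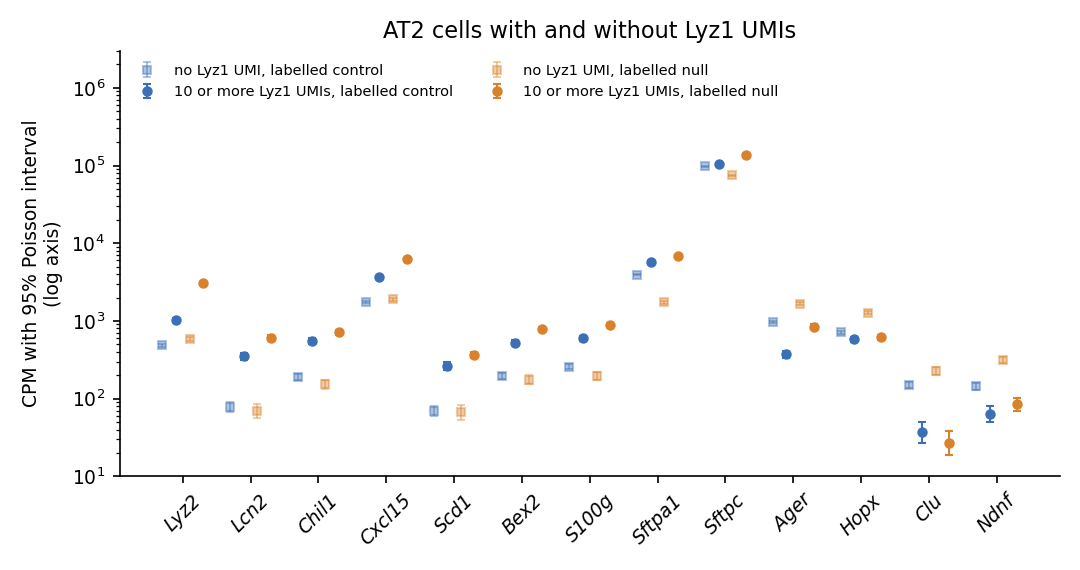
CPM with 95% Poisson intervals (log axis) in AT2 cells with 10 or more Lyz1 UMIs (filled circles) and with none (pale squares), in the libraries labelled control (blue, 54 and 163 cells) and null (orange, 56 and 72 cells). Lcn2, Scd1, Bex2 and S100g are higher and Clu and Ndnf lower beside Lyz1 in both libraries.

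Few AT2 cells were cycling. With cells thinned to 3000 UMIs, 6 of 258 AT2 cells (2.33%, 0.858 to 4.99) in the library labelled control and 4 of 158 (2.53%, 0.694 to 6.36) in the library labelled null held 3 or more UMIs of 18 G2/M genes. The intervals overlapped almost entirely. With 18 S phase genes in place of these, 7 of 258 and 1 of 158 cells held 3 or more UMIs. Measured the same way, the shares were 3.98% and 6.49% in AT1 comparison cells, 20.1% and 16.1% in other epithelial cells and 13.5% and 13.8% in endothelial cells. Of the AT2 cells, 0 held 3 to 4 such UMIs, and the highest held 36 and 25. Top2a, one of the genes that defined the cycling cells, stood at 603 and 340 CPM in them against 5.89 and 5.45 CPM in the other AT2 cells. Outside the cell cycle lists, the largest differences by the smaller ratio of the 2 libraries were in Pbk, Pclaf and the histone gene Hist1h2ap. These are themselves proliferation genes. In the library labelled null, all Pbk and Hist1h2ap UMIs of cycling cells came from 1 cell. Sftpc was lower in cycling cells, at 44587 against 102228 CPM and 71573 against 104258 CPM. On summed UMIs so was Lyz1, at 36.6 against 1860 CPM and 36.4 against 6927 CPM. However, 2 of the 6 and 2 of the 4 cycling cells held a Lyz1 UMI, beside 37.1% and 54.7% of all AT2 cells. The cycling cells had a median of 25346 UMIs against 14848, and 17089 against 17933. Scrublet called 1 of the 6 and 2 of the 4. With all AT2 cells it called left out, 5 of 231 (2.16%, 0.707 to 4.98) and 2 of 148 (1.35%, 0.164 to 4.80) cells were cycling. A fresh draw of the 3000 UMIs from the uncalled cells gave 1 of 148 in the library labelled null.

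Set against each other on UMI counts, the AT2 cells of the libraries were close. Of 2419 genes of at least 50 CPM, 25 (1.03%) were more than 2-fold higher in the library labelled null and 11 (0.455%) lower, and the median log2 ratio was 0.02. They were less close with SoupX-adjusted values. Of the 2264 genes that reached 50 CPM on that scale, 256 were higher and 24 lower, and the median moved to 0.11. Over the 2419 genes chosen on UMI counts, 355 were higher and 23 lower on adjusted values. In the endothelial cells of the same libraries, with more UMIs, 9 of 3353 genes (0.268%) were higher and 5 (0.149%) lower. In AT1 comparison cells 26 of 2645 (0.983%) were higher and 43 (1.63%) lower, and in other epithelial cells 16 of 3258 (0.491%) and 18 (0.552%). Either way, 36 AT2 genes (1.49%) passed. In both scales, 19 genes were higher (0.785%) and 11 lower (0.455%).

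On UMI counts of all AT2 cells, neither surfactant nor lipid genes passed 2-fold between the libraries. This held for 0 of 4 surfactant proteins, 0 of 9 processing genes, 0 of 9 fatty acid synthesis genes, 0 of 9 phosphatidylcholine genes, 0 of 8 uptake and storage genes and 0 of 4 cholesterol genes, beside 1.49% of all genes tested, a share so low that these counts say nothing particular to the lists. The surfactant and processing lists here include Sftpc, Lamp3, Abca3 and Slc34a2, which chose the cells. Between cells with Y-linked UMIs only, described below, 58 of 2463 genes (2.35%) were past 2-fold higher in the library labelled null, which gave 43 such cells. Beside that share, 2 of 10 processing, 2 of 10 fatty acid, 1 of 9 uptake and 2 of 7 cholesterol genes were higher. None of the 4 surfactant protein and 9 phosphatidylcholine genes were. With SoupX-adjusted values 1 fatty acid gene and 1 uptake gene were higher, beside 355 of the 2419 genes. The median log2 ratios of the lipid lists, null over control as labelled, were 0.21, 0.02, -0.14 and -0.03, beside 0.02 over all genes tested. For Sftpc the log2 ratio was 0.05 (0.04 to 0.05) on UMI counts and -0.38 on SoupX-adjusted values, so its direction turned with the scale. The median of the 4 surfactant genes, Sftpc of the rule among them, likewise was 0.06 and -0.37. Elovl1, a fatty acid elongase, came nearest at 42.6 and 85.0 CPM, a log2 ratio of 0.99 (0.73 to 1.27) that became 2.79 on SoupX-adjusted values.

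The 25 genes higher in the library labelled null included Xist, at 0.218 against 719 CPM, genes of 1 cell described below, and single genes of several kinds. Of 9 host defence genes compared, 2 passed 2-fold, Lyz1 and Lyz2. Between cells with Y-linked UMIs only, described below, 4 of 9 were past 2-fold higher and 1 lower, beside 2.35% and 2.23% of all genes compared. Over all AT2 cells, Lyz1 stood at 1795 against 6750 CPM, a log2 ratio of 1.91 (1.87 to 1.95), and Lyz2 at 609 against 1799 CPM. Lyz1 and Lyz2 were among the genes the authors used to estimate free RNA for SoupX, and on adjusted values their log2 ratios were 1.49 and 5.17. Lyz2 is also abundant in lung macrophages, and 12 immune markers summed to 111 and 122 CPM in AT2 cells of the libraries labelled control and null. Chia1, an acidic chitinase, stood at 256 against 716 CPM, and Mt2, a metallothionein, at 42.0 against 102 CPM. Aqp5, a water channel of AT1 cells, stood at 35.4 against 85.6 CPM. The AT1 markers as a list had a median log2 ratio of 0.67, with 1 of 12 past 2-fold. Between cells with Y-linked UMIs only, 4 of 13 were past 2-fold higher and 0 lower, with a median of 0.88, beside 2.35% of all genes compared. Over all AT2 cells, the collagens Col6a1 and Col6a2 stood at 87.2 against 208 CPM and 72.8 against 153 CPM. In endothelial cells they stood at 58.4 CPM or less. Their log2 ratios of 1.25 and 1.06 on UMI counts became 7.95 and 6.72 on SoupX-adjusted values. Msln was a further gene on this side. S100a6, a calcium-binding protein, was higher in every population compared, with log2 ratios of 1.82 in AT2, 1.31 in AT1 comparison, 1.21 in other epithelial and 1.48 in endothelial cells. Snhg11 stood at 20.1 against 66.6 CPM. Chia1, Mt2, Msln and both collagens fell outside the 10 largest ratios and were chosen after their values were seen.

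Of the 25 genes, 8 took more than 50% of their UMIs from 1 cell. Tff3, Retnlb, Spink4, Guca2a and Agr2, genes of goblet and other mucus-secreting cells, took 98.9 to 100% of their UMIs in the library labelled null from 1 cell. It held 545 Tff3, 879 Retnlb and 30 Muc2 UMIs beside 1969 Sftpc and 100 Sftpb UMIs, had 44841 UMIs in all and was not called a doublet. It was the only kept cell of either library with 10 or more Tff3 UMIs. Col1a1, Col3a1 and Tagln, mesenchymal genes, took 67.1%, 68.7% and 64.4% from 1 cell each, and mesenchymal genes as a list summed to 1184 and 1505 CPM on UMI counts and to 0 after SoupX.

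Of the 11 genes lower in the library labelled null, 3 were from the airway list, of which 4 genes were compared. Scgb3a2 stood at 2714 against 75.3 CPM, a log2 ratio of -5.16 (-5.36 to -4.99). Scgb1a1, also among the genes used to estimate free RNA, stood at 482 against 34.99 CPM. In the library labelled null, 1 cell held 80.1% of the Scgb3a2 UMIs, and the largest cell held 66.1% of the Scgb1a1 UMIs. The interval does not cover the spread between cells. Hp, haptoglobin, stood at 381 against 88.7 CPM, Cyp2f2, a club cell cytochrome, at 129 against 57.8 CPM, and Cbr2, a carbonyl reductase of airway cells, at 1289 against 642 CPM. In AT1 comparison cells, which held more airway-like cells in the library labelled null, these 5 genes ran the other way. Log2 ratios there were 0.77 for Scgb3a2, 2.01 for Scgb1a1, 1.35 for Hp, 1.04 for Cyp2f2 and 0.94 for Cbr2. In other epithelial cells they were -0.56, 0.12, 0.16, -0.22 and -0.22. The others were the Y-linked Ddx3y and Eif2s3y, and Col23a1, Slc15a2, Wdfy1 and 5330417C22Rik, with log2 ratios of -1.42 to -1.09. Slc15a2 and Wdfy1 were also lower in AT1 comparison (-1.39 and -0.61), other epithelial (-0.43 and -0.71) and endothelial cells (-4.10 and -0.89). Col23a1 and 5330417C22Rik ran the other way in AT1 comparison cells, at 0.44 and 0.40. Cbr2 was spread over most AT2 cells, with UMIs in 238 of 259 of the library labelled control and 125 of 159 of the library labelled null. Its median level per cell was 975 CPM and 235 CPM. The secretoglobin signal, by contrast, came from few cells. AT2 cells with 10 or more UMIs of both secretoglobins combined numbered 22 in the library labelled control (8.49%, 5.40 to 12.6). They numbered 2 in the library labelled null (1.26%, 0.153 to 4.47). Those 22 cells had a median of 28648 UMIs and 5012 genes against 14518 and 3179 in the other cells, with 1 doublet call. Without such cells, 6 genes were lower. The log2 ratios of the secretoglobins, which defined the cells left out, were then -0.39 for Scgb3a2 and 0.11 for Scgb1a1. Those of genes that did not define them were 0.069 for Hp, 0.17 for Cyp2f2, -0.74 for Cbr2 and -0.54 for 5330417C22Rik. With the rule applied to UMI counts, Scgb3a2 was at -2.57, and Hp at -0.83, Cyp2f2 at -0.66, Cbr2 at -0.72 and 5330417C22Rik at -0.93 no longer passed 2-fold. Whether the 22 cells are mixed droplets or cells with both programmes was not tested.

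**Figure D4:**
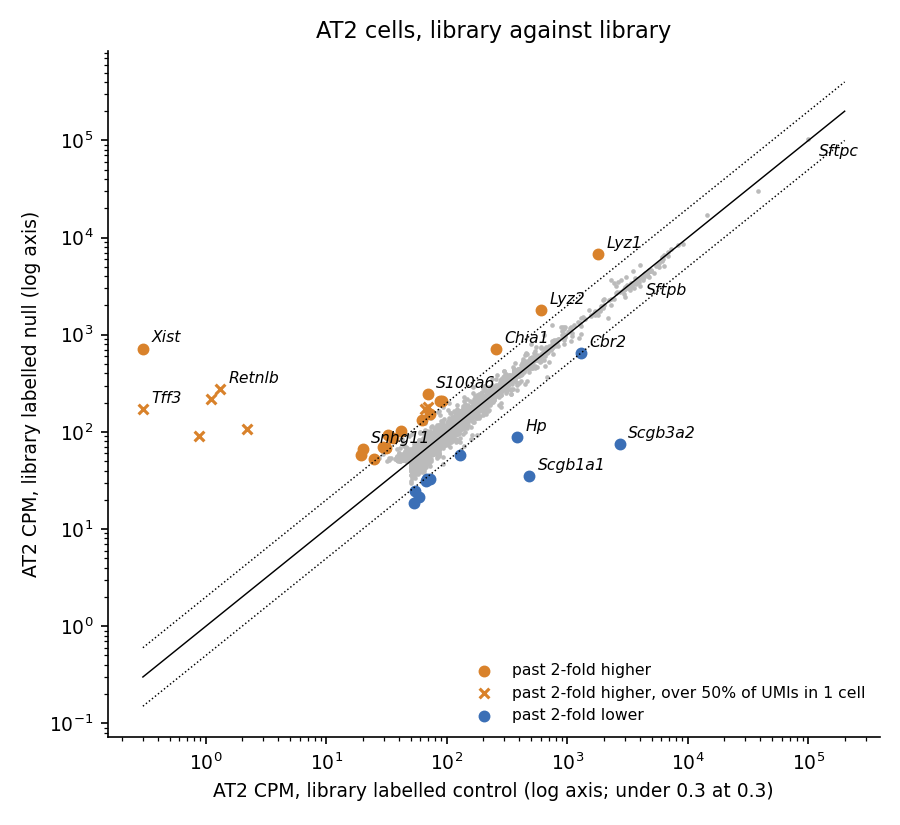
CPM of 2419 genes in AT2 cells of the library labelled control (x) and null (y), both log axes, with a solid line of equality and dotted lines at 2-fold; orange and blue points are the 25 genes higher and 11 lower, and crosses mark genes with more than 50% of UMIs in 1 cell. Surfactant genes lie on the line, Lyz1 and Lyz2 above it and Scgb3a2 and Scgb1a1 below it.

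The library labelled null mixed embryos of both sexes. Among its AT2 cells, 95 held UMIs of Xist only, the RNA of the inactive X chromosome, 43 held Y-linked UMIs only, 16 both and 5 neither, whereas in the library labelled control 215 held Y-linked UMIs only, 0 Xist only, 1 both and 43 neither. Cells of the library labelled null can be split by these genes, though embryo and sex cannot be told apart. AT2 cells with Y-linked UMIs differed from those with Xist in 56 (2.3%) genes higher and 53 (2.18%) lower of 2433, sex genes left out. The same split of endothelial cells gave 1 (0.0305%) and 8 (0.244%) of 3278 genes from deeper sums of 10938525 and 12390684 UMIs, against 928637 and 1772816 in AT2. In AT1 comparison cells the split gave 171 genes higher (6.56%) and 66 lower (2.53%), and in other epithelial cells 177 (5.01%) and 69 (1.95%). Y-linked AT2 cells of the library labelled null differed from those of the library labelled control in 58 genes higher (2.35%) and 55 lower (2.23%) of 2463. The smaller sums of the epithelial groups carry more counting error than the endothelial sums, and its part in these counts was not tested.

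Lyz1, Lyz2 and some lipid genes were higher in the 43 Y-linked cells. Lyz1 stood at 4003 CPM in Xist cells and 11984 CPM in Y-linked cells of the library labelled null, and at 1882 CPM in Y-linked cells of the library labelled control. Lyz2 stood at 602, 4019 and 659 CPM in the same order, so Lyz2 in the Xist cells lay near its level in the library labelled control. These genes were chosen after their values were seen. Scd1 stood at 104, 338 and 130 CPM, S100g at 243, 960 and 364 CPM and Snhg11 at 7.90, 194 and 20.3 CPM. Of 10 fatty acid synthesis genes, 3 (Elovl1, Srebf1 and Scd1) were higher in the Y-linked cells and 0 lower, with a median log2 ratio of 0.77. Of the cholesterol synthesis genes, Insig1 stood at 53.6, 113 and 78.5 CPM and Acat2, an acetyl-CoA acetyltransferase, at 26.5, 62.5 and 26.5 CPM. Of 9 phosphatidylcholine genes 0 were higher, and of 9 uptake and storage genes 1, with medians of 0.43 and 0.30. Over all genes tested the median was -0.10. Mesenchymal markers moved the same way, with 3 of 6 higher, a median of 1.03 and sums of 601, 1134 and 1296 CPM, and their part in these values was not tested. Sftpc stood at 88988, 136625 and 98984 CPM. Retnla, a secreted resistin-like protein, ran the other way at 4453, 1015 and 2453 CPM, as did Clu at 194, 5.38 and 111 CPM and the imprinted RNA H19 at 182, 44.2 and 205 CPM. Of the Y-linked cells, 24 of 43 (55.8%, 39.9 to 70.9) had 10 or more Lyz1 UMIs, against 24 of 95 (25.3%, 16.9 to 35.2) Xist cells and 46 of 215 (21.4%, 16.1 to 27.5) Y-linked cells of the library labelled control.

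**Figure D5:**
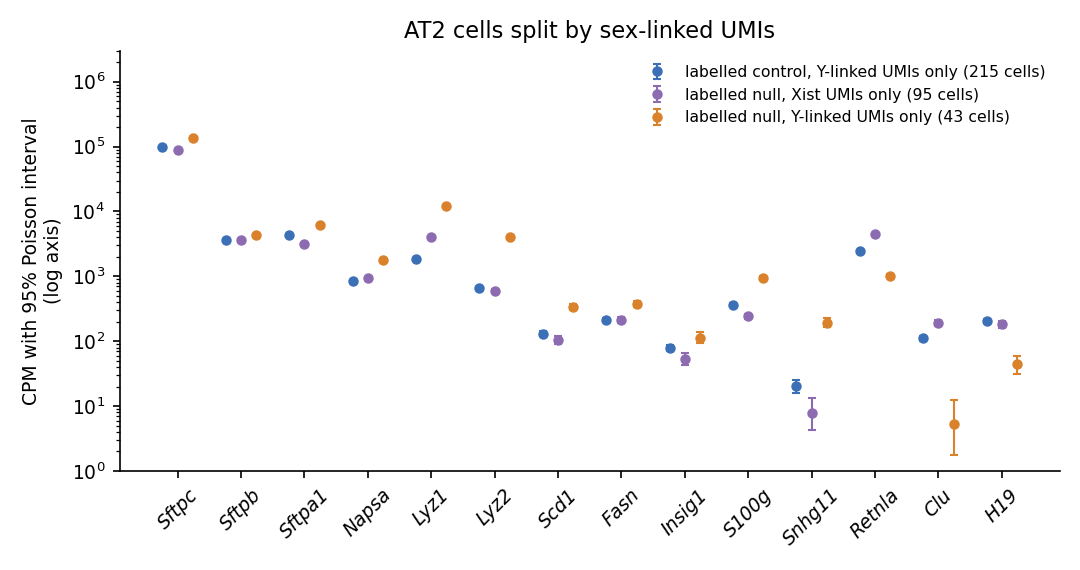
CPM with 95% Poisson intervals (log axis) in AT2 cells with only Y-linked UMIs in the library labelled control (blue, 215 cells), only Xist UMIs in the library labelled null (purple, 95 cells) and only Y-linked UMIs in the library labelled null (orange, 43 cells). Lyz1, Lyz2, Scd1 and Snhg11 are highest in the orange group and Clu and H19 lowest.

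The CXCL12 axis had few UMIs in AT2 cells. Cxcl12 had 0 UMIs in the library labelled control, which allows up to 0.655 CPM by the floor of 3 counts and 0.806 CPM by the exact Poisson limit, and 8 UMIs (2.50 CPM, 1.08 to 4.93) in the library labelled null. Its receptor Cxcr4 stood at 3.50 CPM (1.998 to 5.68) and 2.50 CPM (1.08 to 4.93), and the atypical receptor Ackr3 at 0.437 and 0.625 CPM, against 52.5 and 62.9 CPM for Cxcr4 in endothelial cells.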

How the data were processed

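Whole E18.5 lungs were captured with 10x Single cell 3′ chemistry, version 3. Per the labels and the study's methods, reads were aligned to mm10 with Cell Ranger 3.1 and analysed with Seurat 3.2.2. The authors deposited raw UMI counts per gene and cell, and SoupX-adjusted values of the whole-lung libraries, used here as estimated counts. SoupX estimated free RNA from a gene set that included Lyz1, Lyz2, Scgb1a1 and Fos. The protocol text in the labels describes a sort against EpCAM for all samples, whereas AT2 cells are present here, as in unsorted lung.

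AT2 cells were chosen on adjusted values and quantified on UMI counts summed per library. Gm42418 was left out, as in the study. CPM carry exact 95% Poisson intervals, shares Clopper-Pearson intervals and log2 ratios exact binomial intervals, all for counting error. Those of CPM and log2 ratios use summed UMIs and do not cover the spread between cells. Ratios used a pseudocount of 0.5 CPM and genes of at least 50 CPM. Calls were past 2-fold, with no test, since each label had 1 library. Steps were tested on simulated data. Members and lists were chosen with earlier results of these data known. Genes were named from fixed lists (for each, the 2 to 6 highest in AT2 cells, plus any past 2-fold), as the 10 largest ratios per contrast without sex-linked, haemoglobin, mitochondrial and ribosomal protein genes, and where stated after their values were seen. The 4 sorted libraries were not used. Of 31052 gene identifiers, 31010 matched GENCODE M21. Tools were Python 3.11.15, scanpy 1.11.5 (Scrublet, 6% expected doublets) and edgeR 4.0.16 for TMM factors only. Some results for single genes are not reported here.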

Additional observations from a re-analysis of the deposited data

How the results depend on the processing

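No paired analysis was possible because each label had 1 library and the labels give no replicate numbers. The AT2 share stayed inside its interval under all 6 alternative choices of cells, and the count of genes higher in AT2 than in AT1 comparison cells stayed between 103 and 167 under its 5 alternatives. The cycling share of the library labelled null was 0.676% with Scrublet calls removed and UMIs drawn afresh, where 1 cell remained, and 1.35%, or 2 cells, in the same draw of UMIs, which was added after seeing the data. It was 5.06% (8 of 158) with at least 2 G2/M UMIs, and that of the library labelled control 3.69% (11 of 298) with no lower mitochondrial limit. The 25 genes higher in the library labelled null became 256 with SoupX-adjusted values, 47 at a minimum of 20 CPM and 606 with none, and the 11 lower became 24, 25 and 726. The lower count was 7 with the mean of per-cell CPM and 7 with the rule applied to UMI counts. Alternatives chosen after seeing the data gave 6 lower genes without cells of 10 or more secretoglobin UMIs, and 58 higher and 55 lower between cells with Y-linked UMIs only. In those cells the median log2 ratios were 0.58 for fatty acid, 0.38 for phosphatidylcholine and 0.72 for cholesterol synthesis. The fatty acid median was -0.15 with SoupX-adjusted values. Agr2 turned to -2.57 in Y-linked cells and -2.42 without the cell that held Tff3, and Guca2a to -0.28 without it. Without secretoglobin cells Scgb1a1, Hp and Cyp2f2 turned to 0.11, 0.069 and 0.17. The Y-linked AT2 sum of the library labelled null rests on 43 cells and 928637 UMIs. The causes of these shifts were not tested.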
